A study of Mus musculus with 20 samples.

Results

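A set of 10 G protein-coupled receptors that guide phagocytes towards signals other than chemokines was followed in dendritic cells grown from mouse bone marrow (BMDCs). They were picked by gene symbol as the formyl peptide receptors Fpr1 and Fpr2, the complement anaphylatoxin receptors C5ar1 and C3ar1, the lipid receptors Ptafr, Ltb4r1 and Gpr183, the metabolite receptors Gpr84 and Gpr35, and the chemerin receptor Cmklr1. All 10 were among the 24421 genes listed in the deposited counts and all 10 passed the filter on low counts that left 12465 genes for testing. Bulk RNA-seq had been made from 20 libraries, with cells of the same 5 mice (A to E) in each of 4 groups.

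Every group held bone marrow cells grown for 8 days with GM-CSF at 40 ng/mL, a culture known to yield dendritic cells together with macrophage-like cells. In the group DMSO Ova the cells had DMSO at 5% and ovalbumin (Ova) for 4 hours, and in DMSO IC they had the same DMSO and ovalbumin bound by anti-ovalbumin antibody as an immune complex (IC), which engages Fcγ receptors. The groups iBET Ova and iBET IC had ovalbumin or the immune complex with 3.3 μM I-BET151 (iBET), a small molecule that keeps the BET proteins, readers of acetylated histones, from binding chromatin. The labels describe drug and stimulus as given together, whereas the methods place iBET before the stimulus, and no label states the DMSO content of the iBET groups. Drug and solvent therefore cannot be told apart in the comparisons with iBET. Strain, sex and age of the 5 mice are not given in the labels, and the methods name wild-type C57BL/6 animals without tying them to these libraries. No group lacked both ovalbumin and immune complex, and none had antibody alone.

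Chemoattractant receptors couple mainly to inhibitory G proteins, whose released subunits switch on phospholipase C and phosphoinositide 3-kinase and turn a cell towards the source of its ligand. Formyl peptides mark bacteria and broken mitochondria, C3a and C5a are split from complement where it is activated, and leukotriene B4 and platelet-activating factor are lipids made by activated leukocytes. Antibody complexes activate complement and leukocytes in tissue, so these ligands commonly arise where immune complexes are deposited. GPR183 follows oxysterols and positions dendritic cells and B cells in lymphoid organs.

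The members lie on 8 chromosomes, and all 10 were matched in GENCODE M21 (GRCm38). Fpr1 (chr17:17876471-17883940, minus strand) and Fpr2 (chr17:17887824-17893952, plus strand) are neighbours transcribed away from each other, with 3884 bases between their starts. Of the stretches of 75 bases in the longest Fpr2 transcript, 25.59% also occur in Fpr3 or the pseudogene Gm5966. What share of Fpr2 counts this affects is not known. Fpr3 itself had at most 27 counts in any library, and Gm5966 is not among the genes listed. An antisense gene, Gm49482, covers 681 exonic bases of Gpr84 (chr15:103308235-103310612), and since the strand setting of the counting is not given in the sources used here, reads of that stretch cannot be assigned to either strand. Gpr183 (chr14:121952551-121965195) sits inside the span of Ubac2 on the opposite strand without sharing exonic bases. The other members are C5ar1 (chr7:16246743-16259540), C3ar1 (chr6:122847138-122856161), Ptafr (chr4:132564067-132582683), Ltb4r1 (chr14:55765962-55768494), Gpr35 (chr1:92950865-92986391) and Cmklr1 (chr5:113612354-113650426).

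Promoter sequences from RefSeq (GRCm38.p6, 250 bases before to 50 after a start) were found for all 10 members, 11 sequences in all because Gpr35 has 2. Both strands were searched for TATAAA, the AP-1 letters TGANTCA, the PU.1 letters GAGGAAGT, the CRE letters TGACGTCA, the C/EBP letters TTGCGCAA and for an NF-κB site and an interferon-type element (ISRE). The promoters of 4 genes are printed 5′ to 3′ along the gene because the complement receptors C3ar1 and C5ar1 had unlike differences with iBET, and the lipid receptors Ltb4r1 and Ptafr were called in opposite directions with IC in DMSO cells. Capitals mark motif matches and the rest is in lower case.
C3ar1 promoter, chr6:122856108-122856407, minus strand: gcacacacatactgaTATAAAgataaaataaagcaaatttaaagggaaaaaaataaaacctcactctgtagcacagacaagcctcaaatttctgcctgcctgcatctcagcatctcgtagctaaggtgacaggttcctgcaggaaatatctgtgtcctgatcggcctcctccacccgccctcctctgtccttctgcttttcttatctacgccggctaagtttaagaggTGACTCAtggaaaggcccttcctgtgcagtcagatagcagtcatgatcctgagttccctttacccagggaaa
C5ar1 promoter, chr7:16259289-16259588, minus strand: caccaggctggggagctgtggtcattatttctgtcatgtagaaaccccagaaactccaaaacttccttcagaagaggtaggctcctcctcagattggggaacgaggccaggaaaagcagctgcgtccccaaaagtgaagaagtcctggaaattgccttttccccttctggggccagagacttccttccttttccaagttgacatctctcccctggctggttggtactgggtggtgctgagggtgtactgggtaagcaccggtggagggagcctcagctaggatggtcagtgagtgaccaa
Ltb4r1 promoter, chr14:55765712-55766011, plus strand: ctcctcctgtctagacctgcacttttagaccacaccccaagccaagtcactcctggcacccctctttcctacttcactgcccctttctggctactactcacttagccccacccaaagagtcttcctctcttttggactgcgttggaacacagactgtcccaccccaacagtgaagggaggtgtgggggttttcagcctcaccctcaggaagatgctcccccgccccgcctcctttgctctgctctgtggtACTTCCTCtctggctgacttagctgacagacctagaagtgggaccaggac
Ptafr promoter, chr4:132563817-132564116, plus strand: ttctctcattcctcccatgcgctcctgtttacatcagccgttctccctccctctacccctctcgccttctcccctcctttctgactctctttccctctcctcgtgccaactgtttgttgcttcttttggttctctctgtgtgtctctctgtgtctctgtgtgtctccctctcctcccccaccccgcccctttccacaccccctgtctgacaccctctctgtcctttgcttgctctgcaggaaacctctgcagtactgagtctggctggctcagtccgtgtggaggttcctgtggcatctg
The C3ar1 promoter holds TATAAA at position -235 and an AP-1 match at -22 from its start, and the Ltb4r1 promoter holds the PU.1 letters on the reverse strand from position 1. No letters searched for were found in the C5ar1 and Ptafr windows. Among the other members, TATAAA occurred at -227 in Fpr1 and at -130 in Fpr2, an AP-1 match occurred at -184 in the second Gpr35 promoter, and the remaining windows held none. In the whole table of 32851 mouse promoters of this length, TATAAA was present in 13.6%, the AP-1 letters in 7.81% and the PU.1 letters in 3.2%. The CRE, C/EBP, NF-κB and ISRE letters, absent from the members' windows, occurred in 1.79%, 0.183%, 0.155% and 3.44%. These matches describe letters only.

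Sequencing gave between 16447491 and 29245150 counts per library (median 21764663). The ribosomal RNA gene Rn45s took 2.69% to 7.83% of counts in the DMSO Ova libraries and 3.36% to 8.61% in the iBET IC libraries, with overlapping ranges in all 4 groups. Levels are given as CPM, counts scaled to library size, after TMM normalization, and comparisons of levels between genes use CPM per kilobase (kb) of exon. Even the lowest member libraries held reads: the smallest count was 9, for Gpr35 in iBET Ova. Over the libraries 11 dendritic cell markers summed to 4741 to 9862 CPM, and 7 lymphocyte markers together reached at most 0.801 CPM. The dendritic cell sum was uneven. In DMSO Ova Cd74 (mean 2661 CPM) and Itgax (1962 CPM) were highest, whereas Flt3 (3.03 CPM) and Cd209a (0.281 CPM) were scarce. The 12 macrophage and monocyte markers summed to 2353 to 2955 CPM in DMSO Ova and 2092 to 2621 CPM in DMSO IC, against 1353 to 1743 CPM in iBET Ova and 1406 to 1989 CPM in iBET IC. In bulk RNA fewer cells of one kind and less RNA per cell cannot be told apart.

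In DMSO Ova cells, Ltb4r1 had the highest level per kb (39.7 CPM per kb), followed by Cmklr1 (36.1), Ptafr (34.8) and C3ar1 (34.0). These leading levels lay close together, and the ranges of neighbours in the order overlapped throughout this group. Fpr2 (20.5 CPM per kb), Fpr1 (12.3) and C5ar1 (11.1) came next, and Gpr35 (8.47), Gpr183 (6.59) and Gpr84 (4.86) were lowest. With IC, Cmklr1 (50.4 CPM per kb) and Ptafr (49.2) led, and Ptafr was above C3ar1 (29.9) without overlap. Ltb4r1, first with Ova, was in the fourth place with IC at 26.0 CPM per kb.

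In iBET Ova cells the members fell into a group of 6 with means of 3.74 to 9.48 CPM per kb and a group of 4 with means of 0.209 to 0.756 CPM per kb, separated by a gap between C3ar1 and Fpr1 that no library bridged. The same gap was present in iBET IC, between C3ar1 (2.99 CPM per kb) and Fpr1 (0.940). By mean level, C5ar1 was the seventh of the members in both DMSO groups and the fourth in both iBET groups, and Gpr35 was the eighth with DMSO and the last with iBET. Ranges of C5ar1 and its neighbours in the order overlapped in all 4 groups. Ptafr was above C5ar1 in 3 of 5 mice of iBET Ova, and C5ar1 was above Gpr35 in 3 of 5 mice of each DMSO group. Fpr1 was above C5ar1 in 3 of 5 mice of DMSO Ova and in 5 of 5 of DMSO IC. Within iBET IC, Gpr35 (0.157 CPM per kb) was below Gpr183 (0.364) without overlap.

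**Figure D1:**
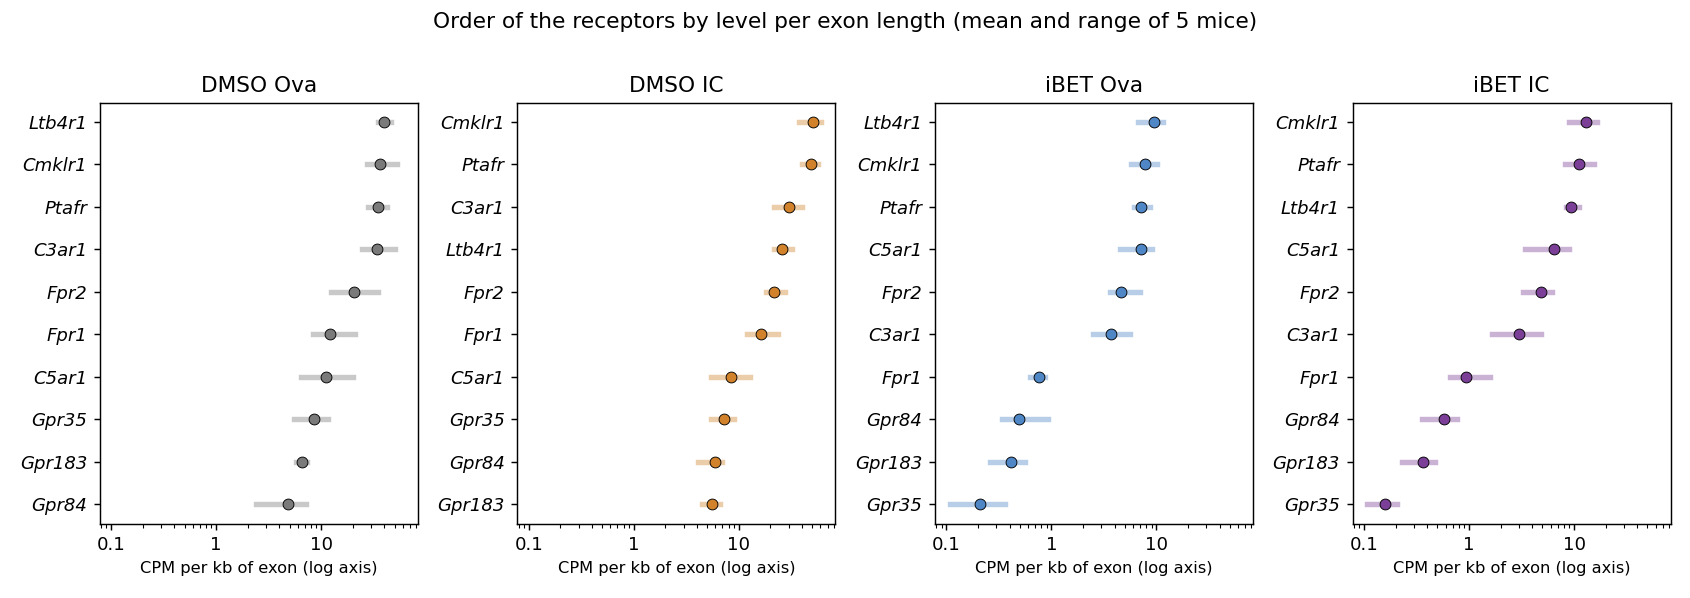
Level of each receptor per kb of exon (CPM per kb, log axis) in the 4 groups, sorted within each group, with the mean as a point and the range over 5 mice as a bar. In both iBET groups Fpr1, Gpr84, Gpr183 and Gpr35 sit apart below the other 6 receptors. C5ar1 stands in the fourth place there by its mean, with a range that overlaps those of its neighbours.

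The comparison of iBET with DMSO asks how BET inhibition changes the receptors of stimulated cells. With Ova, 9 of the 10 receptors were lower with iBET and none was higher, at an adjusted p below 0.05 in the edgeR quasi-likelihood test, adjusted by Benjamini-Hochberg over 12465 genes, where 28.9% of all genes tested were lower. With IC, 9 of 10 were again lower and none higher, against 29% of all genes, and both comparisons named the same exception, C5ar1. The members had a median log2 fold change of -2.73 in Ova cells and -2.72 in IC cells, beside a median near 0 over all genes (-0.0029 and -0.0054). In each comparison the iBET libraries of these 9 receptors lay entirely below the DMSO libraries, a separation that 19.5% of all genes showed with Ova and 21.6% with IC. A fall of at least 4-fold (log2 fold change of -2 or less) was met by 9 members with Ova and by 7 with IC, against 3.24% and 3% of genes tested.

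Fpr1, the high-affinity receptor for bacterial formyl peptides, stood at 27.6, 13.9, 12.6, 11.2 and 15.9 CPM in mice A to E of DMSO Ova and at 28.4, 31.5, 15.8, 15.7 and 17.7 CPM in DMSO IC. The corresponding iBET libraries held 1.09, 1.14, 0.992, 0.946 and 0.837 CPM with Ova and 2.11, 1.44, 0.880, 0.906 and 0.890 CPM with IC. Every iBET library was below every DMSO library, and mouse A held the highest level in DMSO Ova and in iBET IC. Fpr1 was 16.2-fold lower with iBET in Ova cells (log2 fold change -4.02 ± 0.31 SE, adjusted p = 2.06e-09) and 16.9-fold lower in IC cells (log2 fold change -4.08 ± 0.30 SE, adjusted p = 9.45e-10).

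Fpr2, which besides formyl peptides binds many host peptides and pro-resolving ligands, had 45.4, 16.1, 25.2, 21.9 and 24.4 CPM in DMSO Ova and 36.1, 29.3, 26.5, 23.5 and 23.9 CPM in DMSO IC. With iBET these levels were 9.05, 6.02, 4.90, 5.09 and 4.73 CPM in Ova cells and 7.96, 5.95, 5.90, 7.58 and 4.23 CPM in IC cells. The groups did not overlap, although the DMSO Ova library of mouse B was low and that of mouse A high. Fpr2 was 4.46-fold lower with Ova (log2 fold change -2.16 ± 0.25 SE, adjusted p = 3.84e-07) and 4.37-fold lower with IC (log2 fold change -2.13 ± 0.25 SE, adjusted p = 4.09e-07), which left it at a larger share of its DMSO level than its neighbour Fpr1.

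C3ar1, the receptor for C3a, was among the more abundant members, with 179, 217, 121, 105 and 110.2 CPM in DMSO Ova and 172, 164, 111, 92.7 and 105 CPM in DMSO IC. In iBET cells it had 24.2, 20.6, 12.7, 10.7 and 12.3 CPM with Ova and 20.7, 16.6, 10.6, 7.20 and 9.29 CPM with IC. Mice A and B were the highest in all 4 groups, and no iBET library came near a DMSO library. The difference was 9.08-fold with Ova (log2 fold change -3.18 ± 0.31 SE, adjusted p = 4.52e-08) and 9.92-fold with IC (log2 fold change -3.31 ± 0.32 SE, adjusted p = 2.97e-08).

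C5ar1, the main signalling receptor for C5a, was the member that stayed nearest to its DMSO level. It had 31.6, 51.8, 25.1, 18.1 and 16.6 CPM in DMSO Ova against 20.8, 23.1, 22.3, 11.5 and 13.1 CPM in iBET Ova, and 25.7, 32.5, 20.5, 14.1 and 16.4 CPM in DMSO IC against 16.0, 21.4, 23.0, 8.82 and 13.6 CPM in iBET IC. The groups overlapped in both comparisons, with mice A, B and C above mice D and E in every group. In Ova cells C5ar1 had a log2 fold change of -0.66 ± 0.32 SE (95% interval -1.32 to 0.01, adjusted p = 0.0845) and in IC cells of -0.40 ± 0.32 SE (95% interval -1.06 to 0.27, adjusted p = 0.3). With the mouse as a replicate block the adjusted p was 0.000423 in Ova cells and 0.0115 in IC cells, so that in the paired fit all 10 members were lower in both comparisons, beside 35.2% and 35.4% of all genes. C5ar1 was lower with iBET in 5 of 5 mice with Ova and in 4 of 5 with IC, mouse C being the exception. The whole interval for C5ar1 lay above the interval for C3ar1 (log2 fold change of -3.84 to -2.53 with Ova), but the difference between the 2 genes was not tested.

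**Figure D2:**
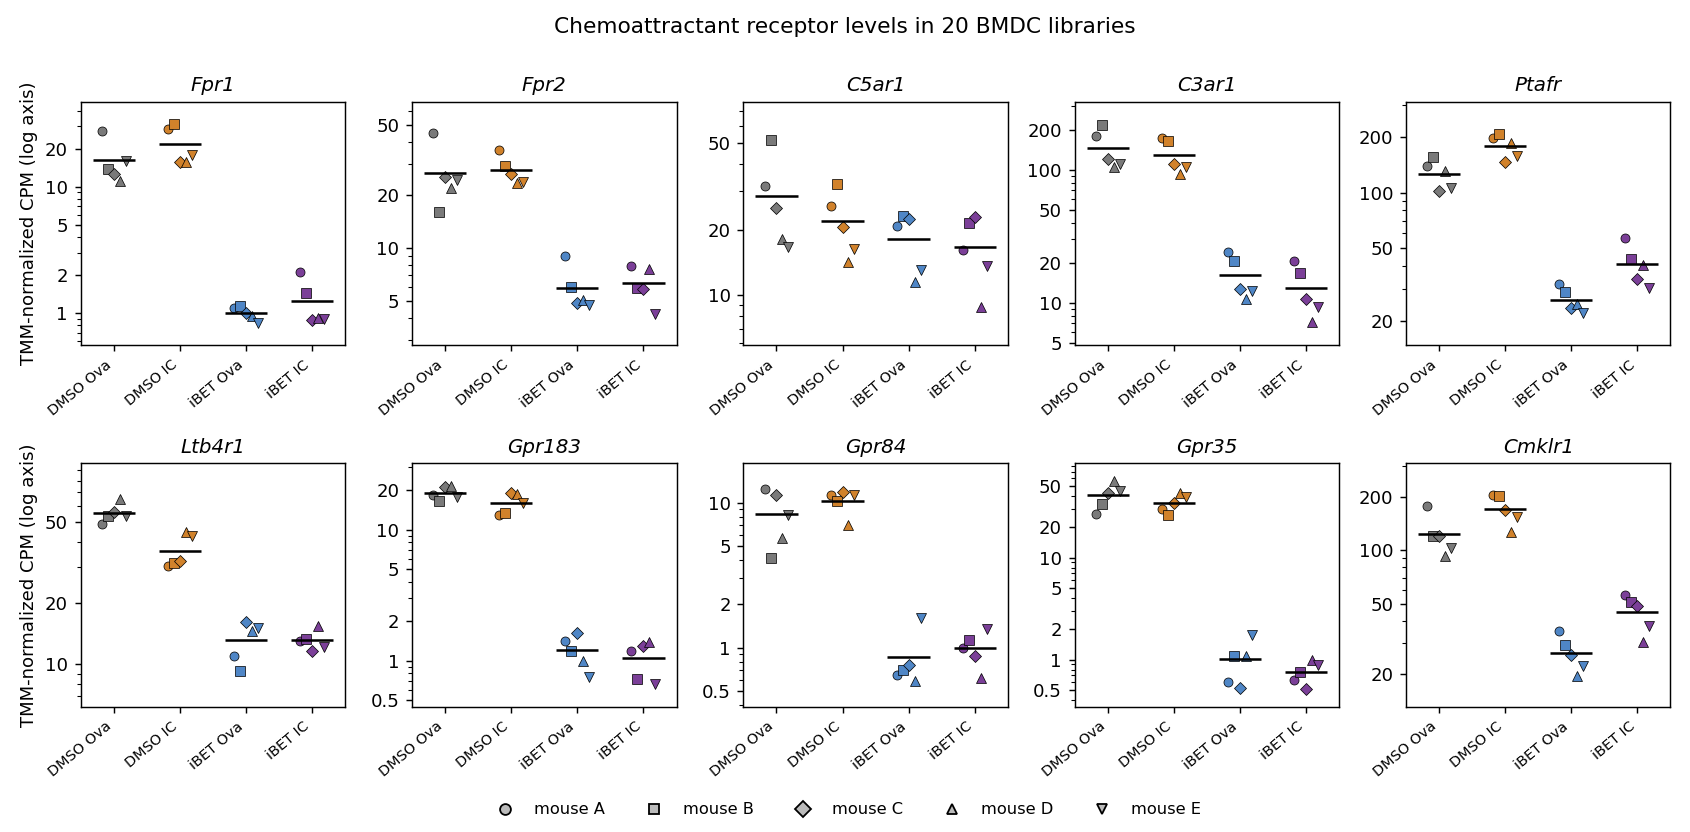
TMM-normalized CPM (log axis, scaled for each receptor) in the 20 libraries, one panel per receptor, with a symbol per mouse and a line at the mean of 5 mice in each group. All iBET libraries lie below all DMSO libraries for 9 receptors, and for C5ar1 the groups overlap with mice D and E low throughout.

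Ptafr, the receptor for platelet-activating factor, had 139, 156, 102, 131 and 105 CPM in DMSO Ova and 198, 208, 146, 186 and 157 CPM in DMSO IC. In iBET cells its levels were 31.7, 28.8, 23.5, 24.8 and 22.3 CPM with Ova and 56.6, 43.7, 33.7, 40.4 and 30.1 CPM with IC. The SD over the 5 mice was between 14.8% (DMSO IC) and 25.1% (iBET IC) of the group mean, and the iBET groups were clear of the DMSO groups. Ptafr was 4.83-fold lower with iBET in Ova cells (log2 fold change -2.27 ± 0.16 SE, adjusted p = 7.22e-10) and 4.37-fold lower in IC cells (log2 fold change -2.13 ± 0.16 SE, adjusted p = 1.38e-09).

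Ltb4r1, the high-affinity leukotriene B4 receptor, had 48.8, 53.8, 55.9, 64.9 and 53.7 CPM in DMSO Ova and 30.4, 31.4, 32.1, 44.8 and 42.8 CPM in DMSO IC. The iBET libraries had 10.9, 9.27, 16.2, 14.5 and 15.1 CPM with Ova and 13.1, 13.3, 11.6, 15.5 and 12.2 CPM with IC. Here the DMSO Ova libraries formed the highest set, DMSO IC came next, and the iBET sets, both lowest, overlapped each other. With Ova Ltb4r1 was 4.19-fold lower with iBET (log2 fold change -2.07 ± 0.15 SE, adjusted p = 5.29e-10) and with IC 2.77-fold lower (log2 fold change -1.47 ± 0.14 SE, adjusted p = 4.78e-08). Its low-affinity relative Ltb4r2 had at most 12 counts in a library and was not tested.

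Gpr183, the oxysterol receptor, ranged from 16.5 to 21.3 CPM in DMSO Ova and from 12.9 to 19.0 CPM in DMSO IC. In mice A to E it had 1.41, 1.19, 1.63, 0.991 and 0.753 CPM in iBET Ova and 1.18, 0.720, 1.29, 1.38 and 0.667 CPM in iBET IC. It showed little spread among DMSO libraries and was left with 12 to 35 reads per iBET library. The difference was 16.0-fold with Ova (log2 fold change -4.00 ± 0.20 SE, adjusted p = 3.03e-12) and 15.2-fold with IC (log2 fold change -3.92 ± 0.20 SE, adjusted p = 3.85e-12).

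Gpr84, a receptor for medium-chain fatty acids, was the least abundant member per kb in DMSO Ova, at 12.5, 4.15, 11.3, 5.71 and 8.26 CPM in mice A to E. It had 11.2, 10.3, 11.9, 6.99 and 11.2 CPM in DMSO IC, 0.646, 0.705, 0.758, 0.585 and 1.59 CPM in iBET Ova and 0.999, 1.14, 0.880, 0.620 and 1.33 CPM in iBET IC. All iBET libraries were below all DMSO libraries, with mouse E highest within both iBET groups. Gpr84 was 9.65-fold lower with iBET in Ova cells (log2 fold change -3.27 ± 0.32 SE, adjusted p = 3.69e-08) and 10.3-fold lower in IC cells (log2 fold change -3.37 ± 0.31 SE, adjusted p = 1.84e-08).

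Gpr35, for which the tryptophan metabolite kynurenic acid and the chemokine-like CXCL17 are proposed ligands, had the widest separation of all members. DMSO libraries held 26.9, 33.4, 43.3, 56.1 and 45.2 CPM with Ova and 29.8, 26.2, 34.6, 43.5 and 39.7 CPM with IC, whereas iBET libraries held 0.606, 1.08, 0.525, 1.08 and 1.76 CPM with Ova and 0.629, 0.757, 0.517, 1.00 and 0.890 CPM with IC. The highest iBET library, that of mouse E with Ova, was far under the lowest DMSO library. Gpr35 was 39.7-fold lower with Ova (log2 fold change -5.31 ± 0.27 SE, adjusted p = 4.2e-12) and 45.8-fold lower with IC (log2 fold change -5.52 ± 0.28 SE, adjusted p = 3.6e-12), from iBET counts of 9 to 42 per library.

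Cmklr1, the receptor for chemerin, had 178, 120.1, 121, 92.5 and 104 CPM in DMSO Ova and 206, 203, 168, 127 and 154 CPM in DMSO IC. With iBET it had 34.9, 29.4, 25.8, 19.7 and 22.3 CPM in Ova cells and 55.9, 51.4, 48.7, 30.5 and 37.4 CPM in IC cells. Mouse A was highest and mouse D lowest in all 4 groups. The iBET groups were 4.66-fold lower with Ova (log2 fold change -2.22 ± 0.20 SE, adjusted p = 1.84e-08) and 3.83-fold lower with IC (log2 fold change -1.94 ± 0.20 SE, adjusted p = 9.43e-08).

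**Figure D3:**
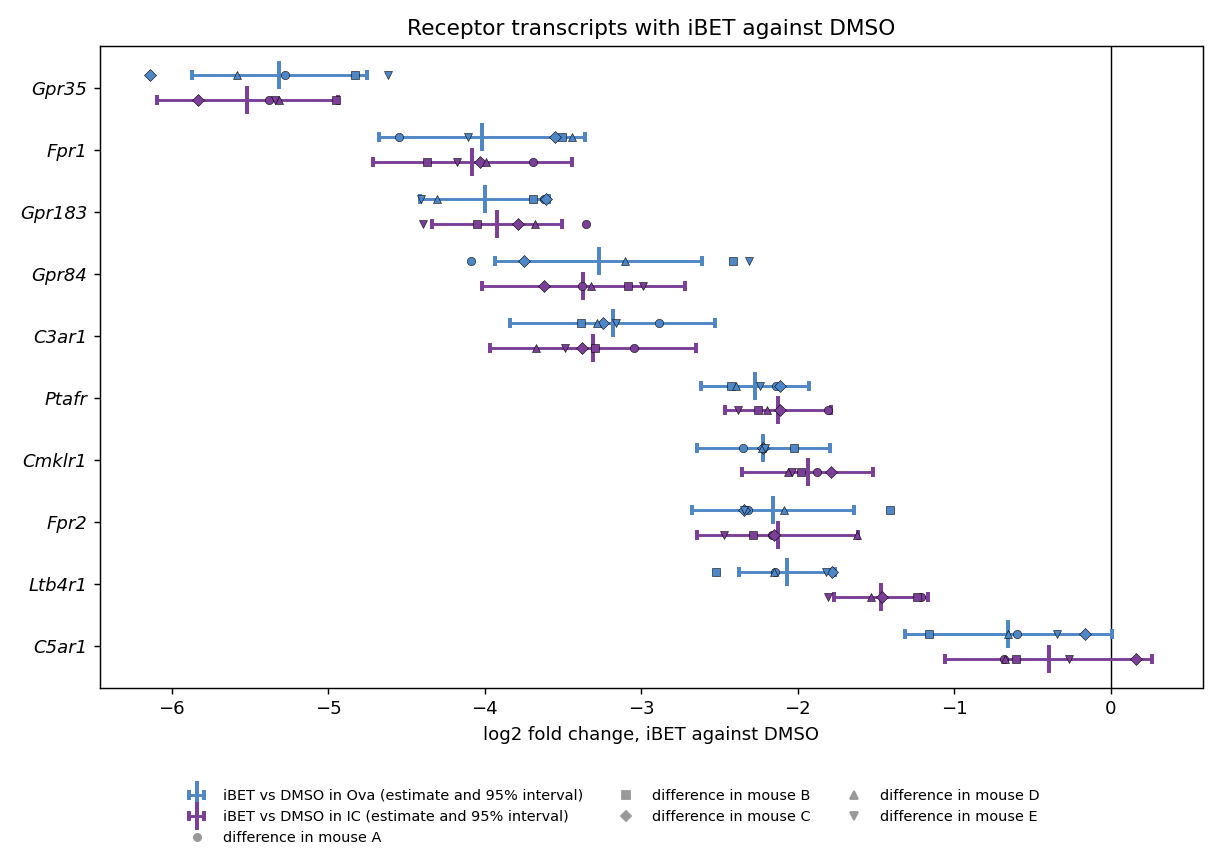
Log2 fold change of each receptor with iBET against DMSO in Ova cells and in IC cells, with the edgeR estimate as a vertical tick, its 95% interval as a bar and the difference within each mouse as a symbol. Estimates run from -5.31 for Gpr35 to -0.66 for C5ar1 with Ova. In this fit, which does not use the pairing by mouse, the 95% intervals of C5ar1 alone reach 0. With the mouse as a replicate block, the C5ar1 intervals were -0.88 to -0.34 with Ova and -0.69 to -0.13 with IC.

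Mice A and B were also fitted apart from mice C, D and E, a split that no label names. In A and B alone, the 9 receptors had log2 fold changes with iBET of -5.20 to -2.04 in Ova cells and -5.31 to -1.21 in IC cells. In C, D and E alone these were -5.31 to -1.88 and -5.57 to -1.58. These 9 receptors were called in both sets of mice. In the same comparisons 7 of 12 macrophage and monocyte markers were lower and 1 higher with Ova, and 5 lower and 1 higher with IC. Of all genes, 28.9% and 29% were lower and 27.7% and 27.1% higher. With the replicate block 9 and 7 of these markers were lower, and 1 was higher in each. The shares of all genes were then 35.2% and 35.4% lower and 33.5% and 32.6% higher. The summed neutrophil markers ranged from 39.7 to 73.0 CPM in iBET Ova and from 44.7 to 85.0 CPM in DMSO Ova. The part of culture composition in the receptor differences was not tested.

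The comparison of IC with Ova asks how Fcγ receptor engagement changes the same receptors, first in DMSO cells. Ptafr was higher and Ltb4r1 lower with IC, 1 member in each direction, where 9.59% of all genes tested were higher and 10.7% lower. The members' median log2 fold change was -0.06 and that of all genes -0.02. With the mouse as a replicate block 6 members were called (38.1% of all genes), the 3 higher ones being Ptafr, Cmklr1 and Fpr1 and the 3 lower ones Ltb4r1, C5ar1 and Gpr183.

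Ltb4r1 fell with IC in 5 of 5 mice, and the 5 DMSO IC libraries lay below all 5 DMSO Ova libraries, as they did for 6.41% of genes. Its mean was 55.4 ± 5.92 CPM (SD, n = 5) with Ova and 36.3 ± 6.89 CPM with IC, a 1.53-fold difference (log2 fold change -0.61 ± 0.14 SE, adjusted p = 0.0043). Mice A and B alone gave a log2 fold change of -0.74 and the other 3 mice one of -0.53.

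Ptafr, by contrast, rose from 127 ± 22.9 CPM (SD, n = 5) with Ova to 179 ± 26.4 CPM with IC, and was 1.41-fold higher (log2 fold change 0.50 ± 0.16 SE, adjusted p = 0.0283). It was higher in 5 of 5 mice, with differences between 0.42 and 0.58 on the log2 scale, although the groups overlapped. Leaving out a mouse lost the call in 3 of 5 fits, with an adjusted p of 0.068 without mouse C, 0.112 without mouse D and 0.0567 without mouse E, while the log2 fold change stayed between 0.48 and 0.53. It was 0.45 in mice A and B alone and 0.55 in the other 3 mice.

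Cmklr1 had a mean of 123 ± 33.1 CPM with Ova and 172 ± 33.3 CPM with IC (log2 fold change 0.48 ± 0.19 SE, adjusted p = 0.0867). The level was above that with Ova in 5 of 5 mice, and in the fit with the mouse as a replicate block the adjusted p was 7.96e-06. Without mouse A, which had the highest Ova level and the smallest difference, the unblocked adjusted p was 0.0274. Mice A and B alone gave a log2 fold change of 0.44, and the other 3 mice gave 0.52.

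For Fpr1 the log2 fold change was 0.42 ± 0.25 SE (adjusted p = 0.246, replicate block 0.00882), with mouse B contributing a difference of 1.18 and mouse A one of 0.04. Without mouse A the adjusted p without the block was 0.0471. C5ar1 and Gpr183 had log2 fold changes of -0.39 ± 0.31 SE and -0.25 ± 0.16 SE, which passed the threshold only with the replicate block (adjusted p = 0.0383 and 0.0452), each with a lower level in 5 of 5 mice. In DESeq2 with the block C5ar1 passed (adjusted p = 0.0312) and Gpr183 did not (0.102). C3ar1 was also lower in 5 of 5 mice, by at most 0.40 on the log2 scale, but passed in neither fit (adjusted p = 0.709). Fpr2 (0.06 ± 0.23 SE), Gpr84 (0.29 ± 0.26 SE) and Gpr35 (-0.24 ± 0.20 SE) had mice on both sides of 0, and the 95% interval for Fpr2 ran from -0.42 to 0.54.

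Under iBET, IC raised 2 receptors, Ptafr and Cmklr1, and lowered none, against 5.19% of all genes tested higher and 6.63% lower. The members' median log2 fold change was 0.04 and that of all genes -0.01. Ptafr had a mean of 26.2 ± 3.93 CPM (SD, n = 5) with Ova and 40.9 ± 10.3 CPM with IC, 1.56-fold higher (log2 fold change 0.64 ± 0.16 SE, adjusted p = 0.0125). Cmklr1 went from 26.4 ± 5.99 CPM to 44.8 ± 10.5 CPM, 1.70-fold higher (log2 fold change 0.76 ± 0.20 SE, adjusted p = 0.0166). Both were higher in 5 of 5 mice, and for both the IC level under iBET was still well below the Ova level with DMSO.

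The call for Ptafr was lost without mouse D (adjusted p = 0.0786), and that for Cmklr1 without mouse B (0.0693), without mouse C (0.104) and without mouse E (0.0512), with log2 fold changes of at least 0.63 for Ptafr and 0.73 for Cmklr1 in these fits. For mice A and B alone the log2 fold change was 0.74 for Ptafr and 0.75 for Cmklr1, and for the other 3 mice it was 0.56 and 0.78. C3ar1 (log2 fold change -0.31 ± 0.30 SE, adjusted p = 0.58) was lower with IC in 5 of 5 mice and passed with the replicate block (adjusted p = 0.00794), in a fit with 3 members called and 28.9% of all genes. For Ltb4r1 the estimate was -0.01 ± 0.15 SE (95% interval -0.32 to 0.30), with 3 mice higher and 2 lower. The remaining 6 receptors lay between -0.44 for Gpr35 and 0.36 for Fpr1, with mice in both directions and adjusted p of at least 0.467. At 13 to 57 counts per iBET library, the 95% intervals of Fpr1 (-0.40 to 1.12) and Gpr84 (-0.56 to 0.95) included the Ptafr estimate of 0.64. The interval of Gpr183 (-0.66 to 0.31), at 12 to 35 counts per library, lay below it.

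**Figure D4:**
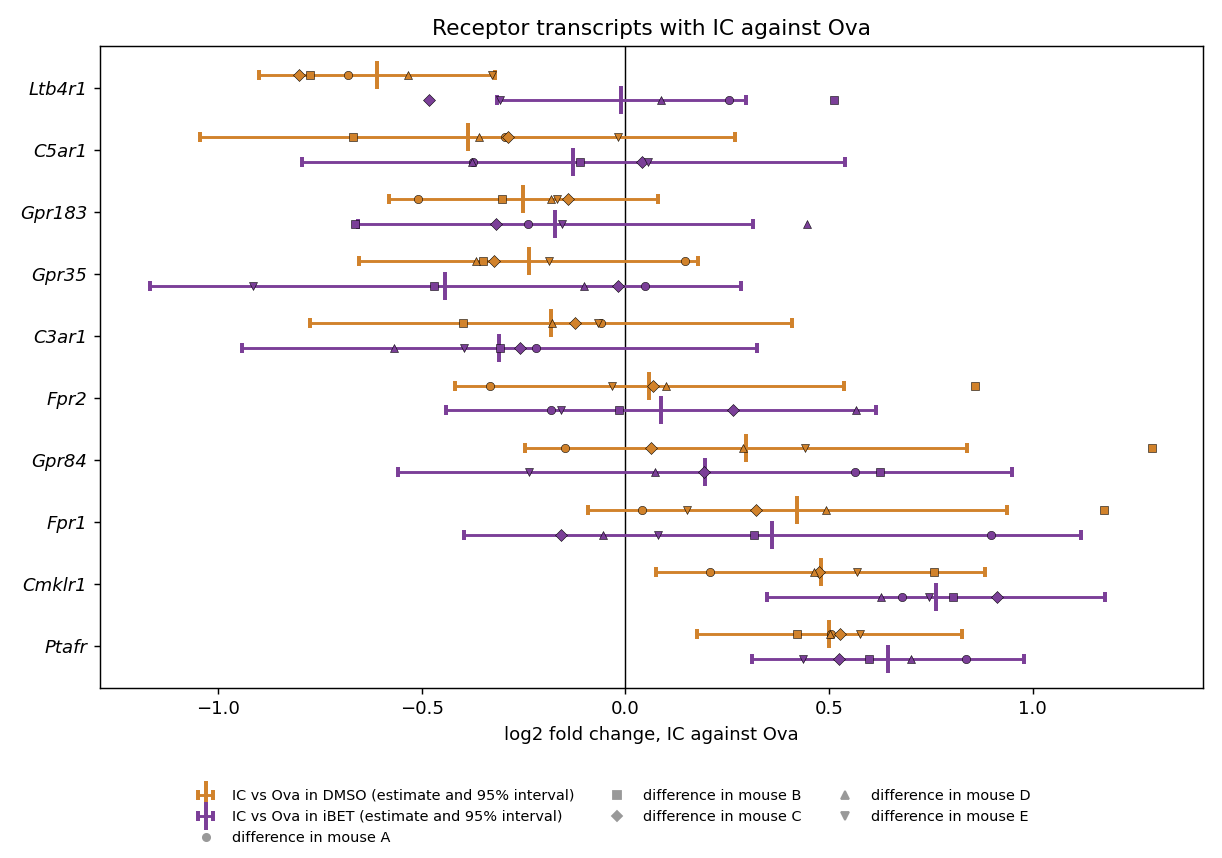
Log2 fold change of each receptor with IC against Ova in DMSO cells and in iBET cells, with the edgeR estimate as a vertical tick, its 95% interval as a bar and the difference within each mouse as a symbol. Ptafr and Cmklr1 lie above 0 in all 5 mice of both settings, and Ltb4r1 lies below 0 in all 5 mice with DMSO and on both sides of 0 with iBET.

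Whether the response to IC differed between DMSO and iBET was tested by the interaction term. No member passed (0 of 10, with 0.0401% of all genes passing in edgeR), and 1 member, Ltb4r1, had an unadjusted p under 0.05, beside 4.36% of all genes. DESeq2 without the block likewise called none of the members. For Ltb4r1 the interaction was 0.60 ± 0.20 SE on the log2 scale (95% interval 0.18 to 1.02, adjusted p = 0.806), positive in 5 of 5 mice with values from 0.02 in mouse E to 1.29 in mouse B. With the replicate block its adjusted p was 0.0526 in edgeR and 0.00577 in DESeq2, so the call depends on the tool. The estimate was 1.13 in mice A and B alone and 0.30 in the other 3 mice. Cmklr1 (0.28 ± 0.28 SE, adjusted p = 1) was positive in 5 of 5 mice as well. The 8 other members had interactions between -0.20 for Gpr35 and 0.26 for C5ar1, with mice in both directions.

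Mice differed in receptor levels beyond treatment. After the group means were removed, the mouse accounted for 94.6% of the remaining variance of C3ar1 in log2 CPM, 93.2% of that of Cmklr1, 86.3% of that of Ptafr and 85.8% of that of C5ar1. For Gpr84 (50.1%), Ltb4r1 (51.5%) and Gpr183 (54.2%) the share was lower. Part of such a share arises even where mice do not differ, and the share over all genes was not computed. Fpr1, Fpr2, C3ar1, Ptafr and Cmklr1 were highest on average in mouse A, and C5ar1 was highest in mouse B. Mouse D was lowest for Fpr1, C5ar1, C3ar1, Cmklr1 and Gpr84 but highest for Ltb4r1, at 0.24 log2 units above the group means, and Gpr35 was highest in mouse E (0.38) and lowest in mouse A (-0.38).

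Other receptors for formyl peptides, complement and lipids were also mostly lower with iBET. Of 23 tested genes of this list, which was chosen with earlier results of these data known, 17 were lower with iBET in Ova cells and 16 in IC cells, and none was higher, against 28.9% and 29% of all genes tested that were lower and 27.7% and 27.1% that were higher. With the replicate block 18 were lower in each comparison (35.2% and 35.4% of all genes), and the sphingosine-1-phosphate receptor S1pr3 was higher with Ova (log2 fold change 0.36 ± 0.60 SE without the block, adjusted p = 0.00793 with it), 1 gene where 33.5% of all genes were higher. The list had medians of -1.56 and -1.42 on the log2 scale. Gpr18, a lipid receptor, had log2 fold changes of -4.54 ± 0.57 SE and -3.29 ± 0.63 SE, from at most 32 counts in a library. C5ar2, the C5a receptor that does not couple to G proteins, fell from 8.59 ± 4.12 CPM to 0.70 ± 0.27 CPM with Ova (log2 fold change -3.61 ± 0.37 SE, adjusted p = 7.1e-08). Gpr55, a receptor for lysophospholipids, had -3.15 ± 0.32 SE with IC.

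With IC against Ova in DMSO cells, 3 of these 23 receptors were higher and 7 lower, against 9.59% and 10.7% of all genes, and with the replicate block 6 were higher and 7 lower, against 18.3% and 19.8%. Hcar2, the niacin and hydroxybutyrate receptor, rose by 0.95 ± 0.30 SE and the prostacyclin receptor Ptgir by 0.76 ± 0.10 SE on the log2 scale, whereas Gpr18 fell by 1.31 ± 0.38 SE and the prostaglandin E2 receptor Ptger3 fell by 1.08 ± 0.21 SE. In iBET cells 3 were higher and 4 lower (5.19% and 6.63% of all genes), and 5 and 4 with the block (14.2% and 14.7%). Ccrl2, a chemerin-binding receptor that does not signal, was higher by 1.32 ± 0.24 SE in iBET cells and by 0.67 ± 0.23 SE in DMSO cells (adjusted p = 0.0436), in 5 of 5 mice each. Hcar2 (1.22 ± 0.34 SE) was higher, and the fatty acid receptor Ffar2 (-1.15 ± 0.28 SE) and the sphingosine-1-phosphate receptor S1pr4 (-0.72 ± 0.20 SE) were lower.

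Of 20 tested genes for ligands and the enzymes that make or degrade them, 6 were lower and 1 higher with iBET in Ova cells, and 5 lower and 2 higher in IC cells, with medians of -0.19 and -0.16. The lower genes were a share close to that of all genes (28.9% and 29%), and the higher ones stood against 27.7% and 27.1%. With the replicate block 11 were lower and 2 higher with Ova, and 10 lower and 4 higher with IC, against 35.2% and 33.5% of all genes with Ova and 35.4% and 32.6% with IC. Ch25h, which makes the precursor of the GPR183 ligand, had a log2 fold change of -3.29 ± 0.55 SE with Ova and -3.94 ± 0.54 SE with IC. Its levels were low, with means of 4.03 and 7.00 CPM in DMSO Ova and DMSO IC. In iBET Ova and iBET IC the means were 0.398 and 0.454 CPM, and the lowest iBET Ova library held 0 CPM. Cyp7b1, of the same list, had at most 1 count in a library and was not tested. Kynu, a kynurenine pathway enzyme, had -1.07 ± 0.23 SE with Ova and -0.90 ± 0.23 SE with IC, and Alox15, a lipoxygenase, was lower both with Ova (-1.06 ± 0.41 SE, adjusted p = 0.0342) and with IC (adjusted p = 0.0499), in 5 of 5 mice each. Lta4h, the enzyme that makes leukotriene B4, was higher by 0.25 ± 0.08 SE and 0.28 ± 0.08 SE, and Hsd3b7, which degrades GPR183 ligands, was higher by 0.42 ± 0.12 SE with IC.

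With IC against Ova in DMSO cells 2 of the 20 were lower, Cyp27a1 (-1.13 ± 0.19 SE) and Hsd3b7 (-0.41 ± 0.12 SE), both sterol enzymes, where 10.7% of all genes were lower, and none was called in iBET cells. With the replicate block the list had 5 higher and 5 lower in DMSO cells (18.3% and 19.8% of all genes) and 3 higher and 4 lower in iBET cells (14.2% and 14.7%). The genes for C5 (Hc), chemerin (Rarres2) and CXCL17 (Cxcl17) had at most 6, 2 and 0 counts in a library, so the cultures held next to no transcript for these ligands.

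Among 39 tested genes of G protein signalling, 19 were lower and 3 higher with iBET in each comparison, with medians of -0.23 with Ova and -0.22 with IC. Of all genes, 28.9% and 29% were lower and 27.7% and 27.1% higher. With the replicate block 24 were lower and 3 higher with Ova, and 23 lower and 5 higher with IC. Of all genes, 35.2% were then lower and 33.5% higher with Ova, and 35.4% and 32.6% with IC. Itpr1, an intracellular calcium channel opened downstream of phospholipase C, rose by 1.56 ± 0.09 SE with Ova and 1.46 ± 0.09 SE with IC. Phospholipases of that step differed in direction. Plcb1 was higher by 0.67 ± 0.20 SE with Ova and Plcb3 by 0.26 ± 0.07 SE with Ova and 0.36 ± 0.07 SE with IC, whereas Plcb2 was lower in both (-1.15 ± 0.08 SE and -0.84 ± 0.08 SE), from a mean of 247 CPM in DMSO Ova cells to 111 CPM in iBET Ova cells. Rgs3, which ends G protein signals, had -2.13 ± 0.39 SE and -2.43 ± 0.40 SE, and the G protein subunit Gnb4 had -1.75 ± 0.53 SE and -1.77 ± 0.53 SE.

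With IC 4 of the 39 were higher and 11 lower in DMSO cells, against 9.59% and 10.7% of all genes, and 4 were higher and 6 lower in iBET cells, against 5.19% and 6.63%. With the replicate block 9 were higher and 13 lower in DMSO cells (18.3% and 19.8% of all genes) and 7 higher and 12 lower in iBET cells (14.2% and 14.7%). Pik3r5, a regulatory subunit of phosphoinositide 3-kinase gamma, was higher by 0.60 ± 0.20 SE and 0.77 ± 0.20 SE, and the G protein subunit Gng12 by 0.48 ± 0.09 SE and 0.39 ± 0.09 SE. All regulators of G protein signalling called without the block were lower with IC. Rgs14 was lower in both settings (-0.79 ± 0.07 SE in DMSO cells and -0.75 ± 0.07 SE in iBET cells), as was Rgs19 (-0.58 ± 0.06 SE and -0.54 ± 0.06 SE). Rgs2 (-0.81 ± 0.22 SE) and Rgs18 (-0.68 ± 0.22 SE, adjusted p = 0.039) were lower in DMSO cells. Rgs1 had 0.28 ± 0.25 SE and 0.46 ± 0.25 SE and was higher in iBET cells with the replicate block alone (adjusted p = 0.00478). Rgs3 was called in neither setting without the block, and was lower in iBET cells with it (adjusted p = 0.00969). No gene of the 3 lists passed the interaction test in edgeR, with or without the block.

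**Figure D5:**
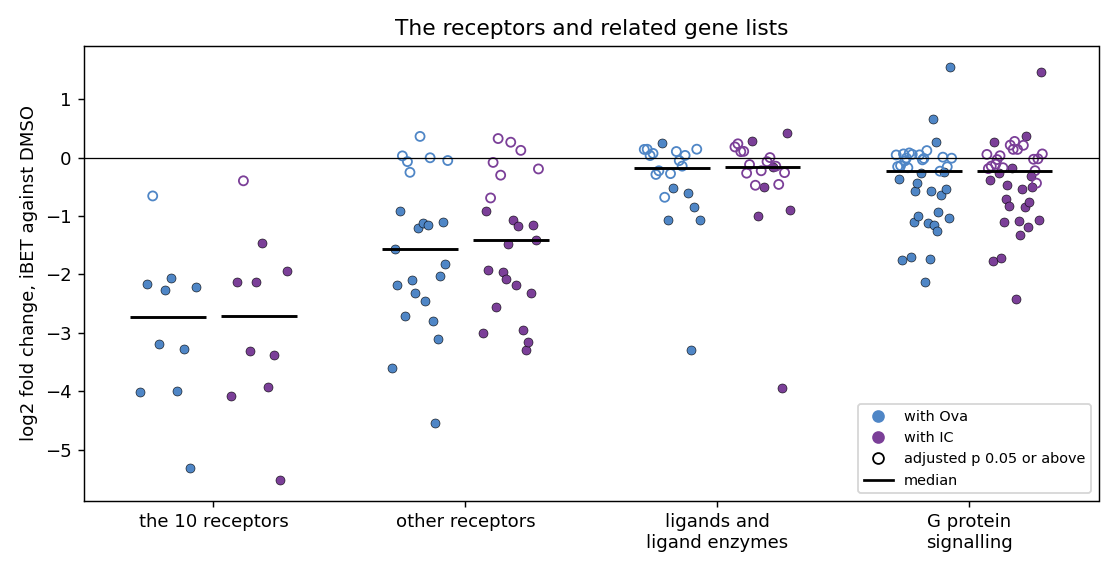
Log2 fold change with iBET against DMSO for the 10 receptors and for the tested genes of 3 related lists, with Ova and with IC, where each point is a gene, filled points passed an adjusted p of 0.05 and lines are medians. The medians are -2.73 and -2.72 for the 10 receptors, -1.56 and -1.42 for other receptors, and between -0.23 and -0.16 for the other 2 lists.

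Genes with the most similar profile were sought over the 20 libraries as those with the smallest root mean square difference in centred log2 CPM. This measure grows with the size of a member's own differences, so the median over all genes is given for each member. Ptafr was nearest to Arl5c (0.20) and Sh3tc1 (0.21), with a median of 1.19, and Ltb4r1 to Mical1 (0.22) and Abi3 (0.22), with a median of 0.98. Cmklr1 was nearest to Ly9 (0.24) and Hvcn1 (0.27, median 1.16), C5ar1 to Dmxl2 (0.30) and Padi4 (0.31, median 0.646), and Fpr2 to Irgc1 (0.31) and Ifi47 (0.32, median 1.15). C3ar1 was nearest to Nlrp3 (0.35) and to the other anaphylatoxin receptor C5ar2 (0.37, median 1.73), and Fpr1 to AU022793 (0.38) and Tlr13 (0.41, median 2.03). For Gpr84 the nearest were B430306N03Rik (0.38) and P2ry14 (0.43, median 1.69), for Gpr183 Spata31d1b (0.44) and Cd244 (0.45, median 1.99), and for Gpr35 Ceacam15 (0.53) and Ciita (0.59, median 2.71). Of these nearest genes, Spata31d1b was close to the floor, with a mean of -1.13 in log2 CPM, beside 0.985 (Irgc1) to 7.66 (Hvcn1) for the others. No member was among the 2 nearest genes of another.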

How the data were processed

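Bulk RNA-seq of murine BMDCs was analysed in 20 libraries of 5 mice and 4 groups. Per the labels and methods, RNA was made into libraries with a low-input total RNA kit, and the authors trimmed the reads with Trim Galore, aligned them to mm10 with HISAT2 and assigned them to genes with featureCounts. Tool versions, annotation, strand and multi-mapping settings are not given in the sources used here. The labels describe sorting into lysis buffer, whereas the methods describe lysis in culture. The authors deposited raw counts per gene and a second table of signal values, which were checked to be the counts divided by DESeq2 size factors and were used in one alternative only.

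Counts were filtered with filterByExpr, normalized with TMM and fitted with edgeR 4.0.16 (R 4.3.3) by quasi-likelihood with one term per group, and p-values were adjusted by Benjamini-Hochberg over 12465 genes with a threshold of 0.05. The methods name DESeq2 and sva without a design or batch. Samples with the same letter come from the same mouse, and libraries of one mouse deviated together from their group means (lowest correlation 0.307 in 30 pairs, mean 0.524, against -0.127 between mice, which follows partly from the centring). The fit with the mouse as a replicate block is given where it changes a member's call or the count of a list. Alternatives were DESeq2 1.42.0, other scalings, no filter, surrogate variables (sva 3.50.0), limma 3.58.1 on the deposited signal with a pseudocount of 1, single mice left out and sets of mice. The tests were tried on simulated data. Replicate libraries of a group differed by more than sampling noise (40 pairs, lowest chi-square over degrees of freedom 13.2). Standard errors were derived from the test, as the size of the log2 fold change over the square root of its quasi-likelihood F statistic. The 95% intervals were built on these standard errors. Both are from the fit over samples without the block, unless the block is named.

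The members, gene lists and motifs were chosen with earlier results of these data known, and all 10 members are reported. From each list the text names the 2 largest rises and falls among called genes per comparison, and for each member the 2 genes of most similar profile. Ltb4r2, Hc, Rarres2, Cxcl17, S1pr3, Plcb2, Rgs1, Rgs18, Cyp7b1, Cd74, Itgax, Flt3 and Cd209a were added after their values were seen. So were further comparisons of genes already named. Lengths are merged exons of GENCODE M21, and promoters are from RefSeq. Log2 CPM used a prior count of 2.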

Additional observations from a re-analysis of the deposited data

Results flagged for a closer look

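Within-group values of the 10 receptors were examined in 40 groups of 5 libraries for a sample far from the other 4, by a gap above 0.71 of the group's range, which chance exceeds in about 1 of 20 groups. This was met in 2 groups. Fpr1 in DMSO Ova was at 27.6 CPM in mouse A, beside 11.2 to 15.9 CPM in the other 4 mice. Gpr84 in iBET Ova was at 1.59 CPM in mouse E, beside 0.585 to 0.758 CPM in the others.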

How the results depend on the processing

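The count of receptors lower with iBET was 9 or 10 under every alternative run, and each of the 9 called receptors kept its direction and call in all 16 fits of each comparison. C5ar1 was called in addition with the replicate block and DESeq2 with the block in both comparisons, and with surrogate variables and in mice A and B only with Ova. For IC against Ova in DMSO cells the count of 2 became 6 with the mouse as a replicate block, 5 in DESeq2 with the block, 4 with 3 surrogate variables, 1 with library size only, 1 in mice A and B only, 1 at an adjusted p under 0.01 and 0 with a log2 fold change of 1 or more in size, and ranged from 1 to 4 when a mouse was left out. With library size only, which moved the median of all genes to -0.13 in DMSO cells and -0.12 in iBET cells, Ptafr in DMSO cells had a log2 fold change of 0.39 and an adjusted p of 0.05, which did not pass. For IC against Ova in iBET cells the count of 2 became 1 in mice A and B only, 0 at an adjusted p under 0.01 and 0 with a log2 fold change of 1 or more in size, and was 1 to 2 when a mouse was left out; the block gave 3. The interaction count of 0 became 1 (Ltb4r1) in DESeq2 with the block. The number of genes passing the interaction over the whole table was 5 in edgeR, 102 with the replicate block, 25 in DESeq2 and 184 in DESeq2 with the block, and the block raised the genes called for IC against Ova from 2531 to 4755 in DMSO cells and from 1474 to 3601 in iBET cells. Apart from the changes named here and in the results, the block changed no call of a member. The causes were not tested, except that fits with fewer mice have fewer samples.

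Estimates changed sign only for members that were not called. For IC against Ova in DMSO cells Fpr2 was -0.051 with library size only, -0.0628 with surrogate variables and -0.0932 to 0.23 when a mouse was left out. For IC against Ova in iBET cells Fpr2 was -0.016 with library size only, -0.12 in mice A and B and -0.0371 to 0.20 when a mouse was left out. Ltb4r1 was 0.00918 with the replicate block, 0.00933 in DESeq2 with the block, 0.0161 in limma, 0.386 in mice A and B and -0.12 to 0.11 when a mouse was left out, and C5ar1 was 0.102 with surrogate variables. In mice C, D and E Fpr1 was -0.0455, Gpr183 0.0514 and Gpr84 -0.109. Among interactions, Fpr1 was 0.00274 and Gpr84 0.14 with surrogate variables, and Fpr2 -0.00112 with the replicate block and -0.0348 in limma. In mice A and B the interaction was 0.184 for Fpr1, -0.172 for Fpr2, -0.0253 for Gpr183 and 0.35 for Gpr84. Leaving out a mouse gave -0.48 to 0.15 for Fpr1, -0.0875 to 0.20 for Fpr2, -0.0776 to 0.18 for Gpr183, -0.36 to 0.20 for Gpr84 and -0.35 to 0.0709 for Gpr35. Counts of 9 to 57 per iBET library limit the precision for Fpr1, Gpr183, Gpr84 and Gpr35 there, beside the spread between mice.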

Other observations

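Marker lists were read against all genes tested, of which 28.9% were lower and 27.7% higher with iBET in Ova cells and 29% and 27.1% in IC cells. With the replicate block these shares were 35.2% and 33.5% in Ova cells and 35.4% and 32.6% in IC cells. Of 10 tested dendritic cell markers 3 were lower with iBET in each comparison, a share close to that of all genes, and with the replicate block 7 were lower in each, with 1 higher in Ova cells and 2 in IC cells. Of 9 tested neutrophil markers 2 were lower and 1 higher in each comparison (3 and 1 with the block). Of 5 tested eosinophil, basophil and mast cell markers 2 were lower in each, with or without the block, and the list summed to 41.5 to 145 CPM over the 4 groups. None of the 7 lymphocyte markers had enough counts to be tested.

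With IC against Ova 2 of 12 macrophage and monocyte markers were lower in DMSO cells, where 10.7% of all genes were lower. No other marker passed in edgeR without the block in either setting. With the replicate block 2 macrophage and monocyte markers were higher and 3 lower in DMSO cells, and 6 were higher and 1 lower in iBET cells, where 14.2% of all genes were higher and 14.7% lower. Of the dendritic cell markers 5 were higher and 1 lower with the block in DMSO cells, where 18.3% of all genes were higher and 19.8% lower, and 6 were higher and 1 lower in iBET cells. Of the neutrophil markers 2 were lower in DMSO cells and 1 in iBET cells with the block, and of the eosinophil, basophil and mast cell markers 1 and 2 were higher. The interaction passed for 2 macrophage and monocyte markers with the block and for no marker without it. Of the 12465 genes tested, 102 passed with the block and 5 without it.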
